A study of Homo sapiens with 4 samples.

Results

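The genes described here are 9 that act on proteins at the cell surface and in the matrix around the cell: the plasminogen activators PLAU and PLAT, the receptor PLAUR, the inhibitor SERPINE2, the tissue inhibitors of metalloproteases TIMP1, TIMP2 and TIMP3, and the membrane sheddases ADAM10 and ADAM17. They were taken by symbol from the annotation of the array's probe sets, where 22 of the 41091 probe sets that name a single gene belong to them, among 19775 genes. All 9 genes reached the level minimum, a mean log2 intensity of 5 over the arrays, on at least 1 probe set, and 20 of their 22 probe sets did. The minimum left 13794 genes in all.

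RNA from 2 established human melanoma lines, A375 and SK-MEL-28, was measured on 4 arrays, 1 for each group: A375 with an siRNA for ZIC5, A375 with a negative control siRNA, SK-MEL-28 with the siRNA for ZIC5, and SK-MEL-28 with the negative control siRNA. All cells had been transfected and were collected 48 h later, so no group was left untransfected, and the siRNA sequences are not given in the sources used here. Both lines carry an activating BRAF mutation, and ZIC5 encodes a transcription factor with zinc fingers. No group had a second array, so differences within a line are given as sizes with no test, and the number of arrays limits the precision.

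Median intensity was between 38.4 and 39.4 on the 4 arrays. ZIC5 itself had 1 probe set, with log2 intensities of 3.82 with ZIC5 siRNA, against 4.07 with control siRNA, in A375, and of 3.95 against 4.42 in SK-MEL-28. These lie under the level minimum, so the knockdown cannot be read from them. Of the melanocytic markers PMEL, MLANA, TYR, MITF, SOX10, S100B and TYRP1, all were between 10.1 and 14.2 in SK-MEL-28. In A375, PMEL, MLANA, TYR and TYRP1 were between 2.91 and 5.17, so these pigment markers were at or under about the level minimum there. In that line MITF was at 7.88 and 8.48 (ZIC5 and control siRNA), S100B at 8.38 and 8.69, and SOX10 at 9.80 or above. Markers of fibroblasts, leukocytes, keratinocytes and endothelium had mean log2 intensities from 4.16 to 6.37 on the 4 arrays, with KRT14 at 8.32 and 8.49 in A375 and COL1A1 between 7.25 and 7.57 in both lines.

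Plasmin is made from plasminogen by urokinase, encoded by PLAU, and by tissue plasminogen activator, encoded by PLAT. PLAUR is the surface receptor that holds urokinase at the cell membrane, and SERPINE2, also called protease nexin-1, is a serpin that blocks thrombin and both activators. TIMPs bind and block matrix metalloproteases, and TIMP3, which is held in the matrix, also blocks ADAM17. ADAM10 and ADAM17 cut the outer part of membrane proteins free of the cell, among them Notch receptors, growth factor precursors and adhesion molecules. In melanoma these genes are studied for their part in invasion and in the release of surface proteins.

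With ZIC5 siRNA, ADAM10 was lower in both lines on all 3 of its probe sets, and its log2 differences of -0.77 in A375 cells and -0.81 in SK-MEL-28 cells were nearly equal in size. TIMP1 was higher in both lines, by 0.91 in A375 cells and 0.34 in SK-MEL-28 cells. PLAT and SERPINE2 were lower by 0.96 and 0.84 in SK-MEL-28, but their A375 differences were -0.06 and -0.14. PLAUR was higher in A375 and lower in SK-MEL-28 on all 3 of its probe sets. None of these siRNA differences passed the test over both lines. Between the lines, PLAT, TIMP2 and TIMP3 were lower in A375 than in SK-MEL-28 and passed the test of the line difference.

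Promoter windows from RefSeq (assembly GRCh38.p14) ran from 250 bases before a gene's start to 50 after it. Those of 7 of the 9 members were used, in 9 windows. Promoters of PLAT and TIMP2 were not analysed here. Shown are those of ADAM10 and ADAM17, which were lower in both lines on their main probe sets, of TIMP1, which was higher in both, and of PLAUR, which differed in opposite ways. Capitals mark every match, on either strand, to the 7 motifs searched: the AP-1 site with the letters TGANTCA, the cyclic AMP response element with TGACGTCA, the amino acid response element with TGATGNAA, the E-box with the letters CACGTG, the GC box with the letters GGGCGG, the CCAAT box named for its own letters, and the TATA box with the letters TATAAA. No matches overlap in the windows shown. Each sequence runs 5′ to 3′ on the gene's strand. The windows are chr15:58749658-58749957 (- strand), chr2:9555781-9556080 (- strand), chrX:47582186-47582485 (+ strand) and chr19:43670120-43670419 (- strand).
ADAM10: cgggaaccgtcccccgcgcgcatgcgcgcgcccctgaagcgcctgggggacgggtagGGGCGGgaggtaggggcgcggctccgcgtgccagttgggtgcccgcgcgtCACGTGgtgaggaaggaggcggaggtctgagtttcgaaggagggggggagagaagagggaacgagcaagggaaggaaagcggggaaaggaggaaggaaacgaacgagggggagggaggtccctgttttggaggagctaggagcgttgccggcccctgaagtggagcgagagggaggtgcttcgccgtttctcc
ADAM17: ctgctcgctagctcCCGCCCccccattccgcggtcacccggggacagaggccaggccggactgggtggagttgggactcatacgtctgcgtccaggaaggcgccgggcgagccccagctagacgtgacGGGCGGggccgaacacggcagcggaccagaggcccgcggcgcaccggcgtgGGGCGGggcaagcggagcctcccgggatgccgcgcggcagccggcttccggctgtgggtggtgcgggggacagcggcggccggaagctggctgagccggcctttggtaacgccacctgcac
TIMP1: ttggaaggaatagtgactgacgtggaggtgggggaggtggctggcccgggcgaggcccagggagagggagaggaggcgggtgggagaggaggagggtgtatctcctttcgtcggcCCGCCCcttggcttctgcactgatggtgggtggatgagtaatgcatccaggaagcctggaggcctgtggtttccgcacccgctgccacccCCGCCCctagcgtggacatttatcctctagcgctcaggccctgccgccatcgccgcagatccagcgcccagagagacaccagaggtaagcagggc
PLAUR: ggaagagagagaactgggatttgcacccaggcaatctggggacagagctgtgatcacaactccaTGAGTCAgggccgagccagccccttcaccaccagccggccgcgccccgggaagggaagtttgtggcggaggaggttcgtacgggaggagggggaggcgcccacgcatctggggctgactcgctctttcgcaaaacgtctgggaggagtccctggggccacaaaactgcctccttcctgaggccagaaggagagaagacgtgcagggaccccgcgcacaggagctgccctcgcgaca

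The ADAM10 window held 1 E-box, at position -143 from the start, and 1 GC box, and the ADAM17 window held 3 GC boxes and no E-box. The TIMP1 window held 2 GC boxes. The PLAUR window held a single match, the AP-1 site TGAGTCA at position -186. Over all 35116 windows of the same length, 45.0% held a GC box, 7.26% an E-box and 7.71% this AP-1 site, so the GC box is common and the others are not. The CCAAT box was in 34.6%, the TATA box in 11.5%, the amino acid element in 3.62% and the cyclic AMP element in 1.85% of all windows, and none of these was in the 4 windows shown. The SERPINE2 window at its inner start, not shown, held 7 CCAAT motifs, and its other window held 0. Those reading CCAAT on the gene's strand lay at even steps, at -215, -138 and -61. Whether the 7 are copies of a repeat was not tested. All matches given here describe the letters of the windows and do not show that a factor binds there.

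**Figure D1:**
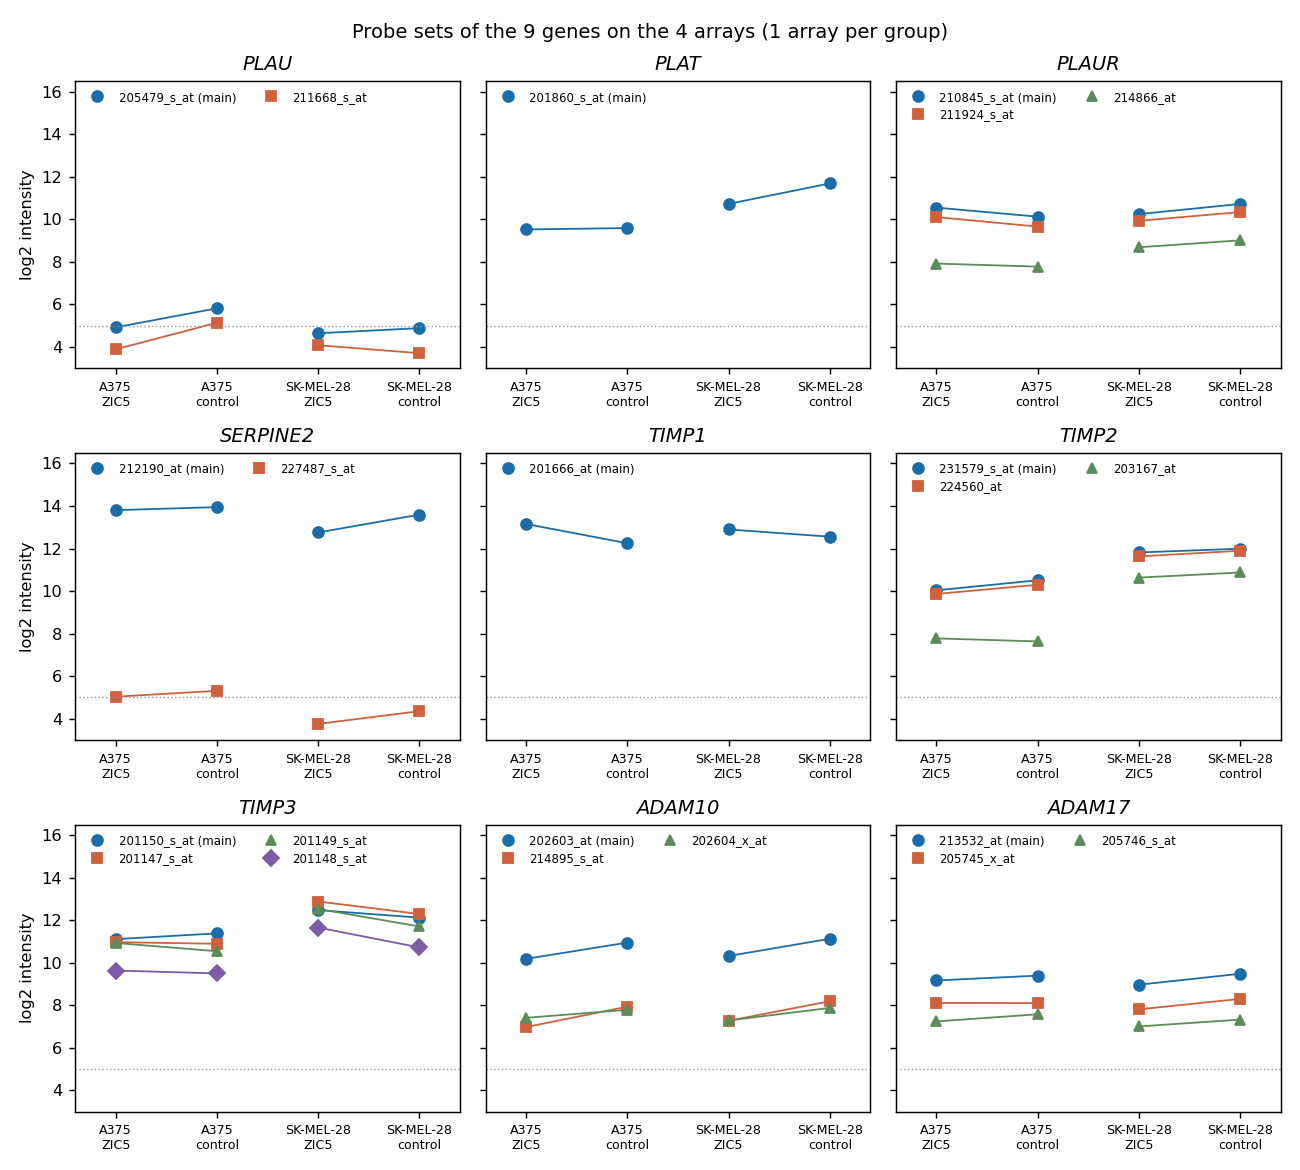
Log2 intensity (y axis) of every probe set of the 9 genes on the 4 arrays (x axis), with lines joining the ZIC5 siRNA and control siRNA arrays of a line, the dotted line at the level minimum of 5, and (main) marking the probe set with the highest mean. Points of PLAU and of the second SERPINE2 probe set lie near the minimum, and TIMP2 and TIMP3 points lie higher in SK-MEL-28 than in A375.

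An siRNA difference is the log2 intensity of a line's ZIC5 siRNA array less that of its control array, read on the main probe set of a gene, the one with the highest mean. They are read beside the median SD between probe sets of the same gene, 0.25 in A375 cells and 0.15 in SK-MEL-28 cells. They are also read beside the SD of the differences over all genes, 0.60 and 0.39. Both SDs come from the same arrays as the differences, so neither measures the spread between cultures. The siRNA effect over both lines comes from a limma fit with the line in the model, in which the lines are the only replication, and adjusted p-values are Benjamini-Hochberg over all 13794 genes.

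PLAU, the urokinase gene, had log2 intensities of 4.92 with ZIC5 siRNA, against 5.81 with control siRNA, in A375, and of 4.64 against 4.88 in SK-MEL-28. Only the A375 control array was over the minimum, and PLAU passed it through that array, so the sizes of its differences are not exact. The A375 difference was -0.89 and that of SK-MEL-28 -0.24. The limma test of PLAU is not read, since the array that let it pass is also the one where it was highest. Even there it was no higher than the leukocyte gene CD3E, which was at 5.82 on that array. The second PLAU probe set, 211668_s_at, was under the minimum with 3.88 against 5.14 in A375 and 4.08 against 3.70 in SK-MEL-28. It was thus lower by 1.25 in A375 (a difference of -1.25) and higher by 0.37 in SK-MEL-28, so the probe sets had opposite signs in SK-MEL-28. With log2 values under 5 set to 5, the SK-MEL-28 difference of the main probe set was 0.

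PLAT, the tissue activator gene, was measured by 1 probe set, with 9.52 with ZIC5 siRNA and 9.59 with control siRNA in A375 cells, and 10.72 and 11.68 in SK-MEL-28 cells. The A375 arrays differed by less than the probe set spread, and the SK-MEL-28 control array was the highest of the 4. In SK-MEL-28 its intensity was 1.95-fold lower with ZIC5 siRNA, 1690 against 3292, just inside 2-fold. That difference, -0.96, stood at percentile 2.25 of the differences of all genes in that line, while -0.06 stood at percentile 45.3 in A375. The mean was -0.51 (SE 0.27, limma adjusted p = 0.462), with the disagreement of the lines in the SE.

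PLAUR, the urokinase receptor, had 10.55 with ZIC5 siRNA, against 10.12 with control siRNA, in A375, and 10.24 against 10.72 in SK-MEL-28. The differences were 0.43 and -0.48. The second probe set differed by 0.45 and -0.41, and the third by 0.14 and -0.33, so every probe set was higher in A375 and lower in SK-MEL-28. Of all genes, 17.0% were higher in A375 and lower in SK-MEL-28 at any size. The mean over the lines was -0.03 (SE 0.27, limma adjusted p = 0.974), and with 1 array per group the difference between the lines in response could not be tested.

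SERPINE2, the serpin that blocks the activators, had 13.80 with ZIC5 siRNA, against 13.95 with control siRNA, in A375, and 12.75 against 13.59 in SK-MEL-28. The lowest value was that of the SK-MEL-28 ZIC5 siRNA array, 1.79-fold under its control. The differences of -0.14 in A375 cells and -0.84 in SK-MEL-28 cells stood at percentiles 38.0 and 3.16 of all genes. The second probe set, under the minimum, differed by -0.28 and -0.60, with the same signs. The mean of the main probe set was -0.49 (SE 0.19, limma adjusted p = 0.392).

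TIMP1, a secreted inhibitor of many matrix metalloproteases, was measured by 1 probe set and had 13.15 with ZIC5 siRNA, against 12.25 with control siRNA, in A375, and 12.90 against 12.56 in SK-MEL-28. Both ZIC5 siRNA arrays were above both control arrays. Intensity was 1.88-fold higher in A375 (9121 against 4864) and 1.27-fold higher in SK-MEL-28 (7631 against 6024). The mean difference of 0.62 (SE 0.17) had an unadjusted limma p of 0.0223 and an adjusted p of 0.337. Of the 9 members it alone was higher in both lines on its main probe set, as were 31.5% of all genes.

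TIMP2, a secreted inhibitor that also takes part in the activation of MMP2 at the cell surface, had 10.04 with ZIC5 siRNA, against 10.51 with control siRNA, in A375, and 11.82 against 11.99 in SK-MEL-28. The differences were -0.47 and -0.18 on the main probe set and -0.43 and -0.27 on the second. The third, 203167_at, differed by 0.14 in A375 cells and -0.24 in SK-MEL-28 cells, so the probe sets disagree on the direction in A375. The mean was -0.33 (SE 0.14, limma adjusted p = 0.422).

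TIMP3, the inhibitor held in the matrix, had 11.11 with ZIC5 siRNA, against 11.39 with control siRNA, in A375, and 12.48 against 12.13 in SK-MEL-28 on its main probe set. The main differences of -0.27 and 0.35 had opposite signs, as did those of 18.6% of all genes with A375 lower. The other 3 probe sets were higher in both lines, by 0.07, 0.39 and 0.14 in A375 and by 0.59, 0.82 and 0.93 in SK-MEL-28. All 4 were therefore higher in SK-MEL-28, with a mean of 0.68 (SD 0.26 between probe sets, which are not replicates), while in A375 the mean was 0.08 (SD 0.27). The limma mean was 0.04 (SE 0.19, adjusted p = 0.936) on the main probe set and 0.38 with the probe sets averaged, so the size rests on which probe sets are read.

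ADAM10, the main sheddase of Notch receptors and of cadherins, had 10.19 with ZIC5 siRNA, against 10.95 with control siRNA, in A375, and 10.32 against 11.13 in SK-MEL-28. Both ZIC5 siRNA arrays were below both control arrays. Intensity was 1.70-fold lower in A375 (1166 against 1983) and 1.75-fold lower in SK-MEL-28 (1281 against 2246). The second probe set, 214895_s_at, differed by -0.96 and -0.92, and 202604_x_at, whose name ending marks probes that may also match other transcripts, by -0.38 and -0.59. The mean over the lines was -0.79 (SE 0.13), at percentile 4.12 of all genes, with an unadjusted limma p of 0.00471 and an adjusted p of 0.270. At least 1.5-fold lower in both lines were 1 of 9 members, ADAM10, and 3.48% of all genes, and at least 1.5-fold higher in both were 0 of 9 members and 1.98% of all genes.

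ADAM17, the sheddase of TNF and of several EGF receptor ligands, had 9.17 with ZIC5 siRNA, against 9.40 with control siRNA, in A375, and 8.97 against 9.49 in SK-MEL-28. Both ZIC5 siRNA arrays were again below both control arrays, and the differences within the lines were -0.23 and -0.52. The 205745_x_at probe set differed by 0.00 and -0.49, and 205746_s_at by -0.34 and -0.32. The mean was -0.37 (SE 0.18, limma adjusted p = 0.439). The ADAM17 difference in A375 was within the probe set spread of that line, 0.25, and that of SK-MEL-28 was not within its spread of 0.15. That spread is between probe sets on the same arrays and cannot show whether a second culture would differ as much.

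**Figure D2:**
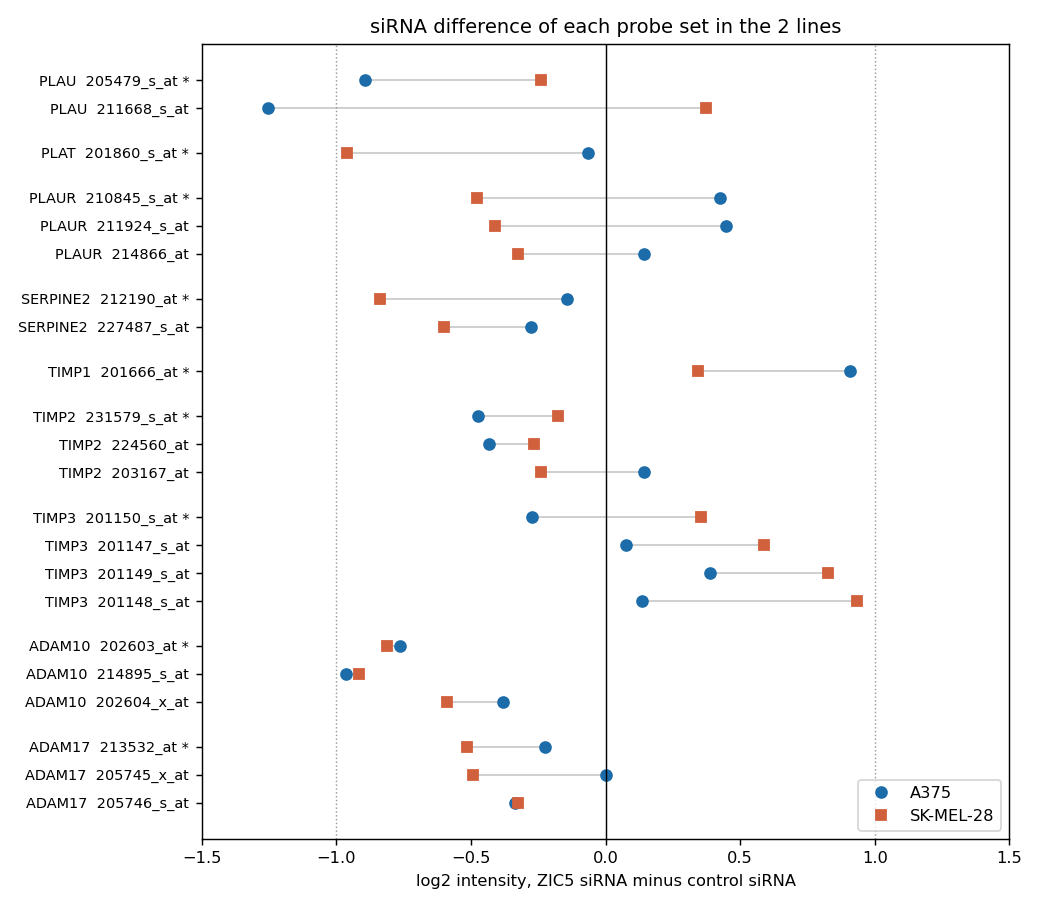
Log2 intensity with ZIC5 siRNA minus control siRNA (x axis) for every probe set (rows, an asterisk marks the main one), with circles for A375 and squares for SK-MEL-28 and dotted lines at 2-fold. ADAM10 points lie left of 0 in both lines, PLAUR circles and squares lie on opposite sides, and the second PLAU probe set in A375, at -1.25, is past 2-fold.

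Over the 9 main probe sets, 7 members were lower in A375 cells and 7 in SK-MEL-28 cells, with 6 lower in both. Of all genes, 32.5% were lower in both lines, 18.6% lower in A375 and higher in SK-MEL-28, and 17.0% the reverse. The 6 members lower in both include PLAU, whose SK-MEL-28 values are both under the minimum. Its A375 fall rests on the control array that let it pass, and PLAU is in the medians that follow too. The median difference was -0.23 in A375 cells and -0.48 in SK-MEL-28 cells, beside medians over all genes of -0.01 and 0.00. By the rule of at least 2-fold, 0 of 9 members were called in A375, where 3.89% of all genes were higher and 5.05% lower (8.95% in all), and 0 of 9 in SK-MEL-28, where 0.776% were higher and 2.12% lower (2.89% in all). Of the 20 member probe sets at the minimum, 11 were lower in A375 cells and 15 in SK-MEL-28 cells. The share of all probe sets lower at any size was not counted. Past 2-fold were 0 of the 20, beside 9.65% (A375) and 2.74% (SK-MEL-28) of the 25368 probe sets at the minimum. The limma test of the siRNA effect called 0 of 13794 genes (0.0%), with a lowest adjusted p of 0.268, while 13.2% of genes and 2 of 9 members, ADAM10 and TIMP1, had an unadjusted p under 0.05. The members were chosen with earlier results of these data known, so these counts describe them and test nothing.

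**Figure D3:**
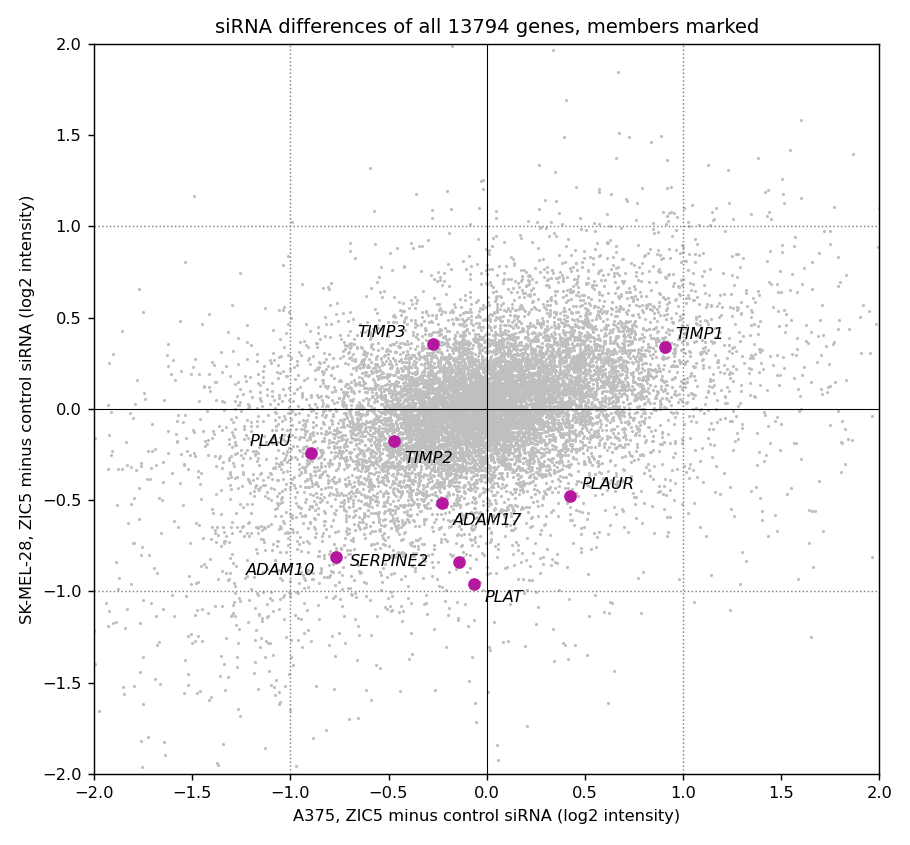
Differences with ZIC5 siRNA minus control siRNA (log2 intensity) in A375 (x axis) and SK-MEL-28 (y axis) for the main probe sets of 13794 genes (grey) and of the 9 members (labelled), with dotted lines at 2-fold. Another 146 genes lie beyond the plotted range of 2 either way. ADAM10 lies low in both lines, PLAT and SERPINE2 lie low in SK-MEL-28, and PLAUR and TIMP3 lie in the quadrants of opposite sign.

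The line difference, A375 minus SK-MEL-28, was estimated in the same limma fit from the 2 arrays of each line, which differ in siRNA and are not replicate cultures. It was called for 3 of 9 members, all lower in A375, where 13.4% of all genes were called lower in A375 and 27.7% were called either way. The share of members called either way is near that of all genes. PLAT had the line difference -1.65 (SE 0.27, limma adjusted p = 0.0243), a 3.14-fold lower level in A375. TIMP2 had -1.63 (SE 0.14, limma adjusted p = 0.00825), 3.10-fold lower in A375. TIMP3 had -1.05 (SE 0.19, limma adjusted p = 0.0303), 2.07-fold lower in A375. Since these are levels in whole cultures, fewer cells with a transcript and less of it per cell cannot be told apart.

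Every probe set of these 3 genes was lower in A375 under either siRNA. PLAT was lower by a difference of -1.20 with ZIC5 siRNA in both lines and of -2.10 with control siRNA in both. TIMP2 probe sets differed by -1.78, -1.77 and -2.86 with ZIC5 siRNA and by -1.48, -1.60 and -3.24 with control siRNA. TIMP3 probe sets ran between -1.37 and -2.02 with ZIC5 siRNA, and between -0.74 and -1.40 with control siRNA. The PLAT gap between the lines was thus smaller with ZIC5 siRNA and the TIMP3 gap larger, without a test of either. The melanocytic markers moved with the line difference too: the summed log2 intensity of the 7 measured was 44.0 and 43.8 in A375 (ZIC5 and control siRNA) and 84.0 and 84.6 in SK-MEL-28. Their part in the levels of PLAT, TIMP2 and TIMP3 was not tested.

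The other members did not pass. SERPINE2 was higher in A375 by 0.70 (SE 0.19, limma adjusted p = 0.0691), with gaps of 1.05 with ZIC5 siRNA and 0.35 with control siRNA. With a level minimum of 7, which leaves fewer genes to adjust over, its adjusted p was 0.0297. For PLAU, under the minimum on 3 of the 4 arrays, no line difference is given. PLAUR differed by -0.15, TIMP1 by -0.03, ADAM10 by -0.16 and ADAM17 by 0.06, with limma adjusted p-values between 0.445 and 0.929. The main PLAUR probe set was higher in A375 by 0.30 with ZIC5 siRNA and differed by -0.60 with control siRNA. On it the order of the lines thus turned with the siRNA. The third PLAUR probe set, 214866_at, was lower in A375 under either siRNA, with differences of -0.77 (ZIC5) and -1.24 (control).

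**Figure D4:**
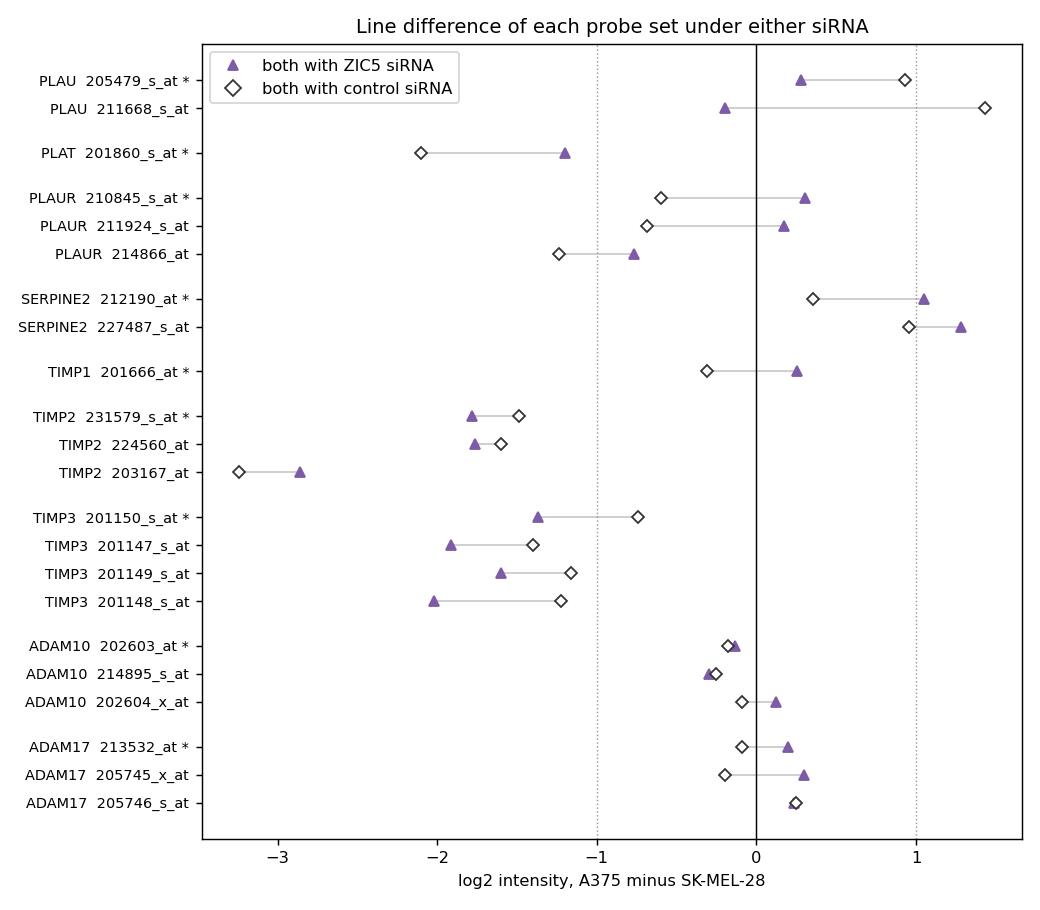
Log2 intensity in A375 minus SK-MEL-28 (x axis) for every probe set (rows, an asterisk marks the main one), with triangles where both lines had ZIC5 siRNA, diamonds where both had control siRNA, and dotted lines at 2-fold. All points of PLAT, TIMP2 and TIMP3 lie left of 0, and those of the first 2 PLAUR probe sets lie on both sides.

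The other genes of these pathways were taken from lists, and 0 genes of any list passed the limma test of the siRNA effect. Beside the list counts, the shares of all genes at least 2-fold higher and lower were 3.89% and 5.05% for A375, with 0.776% and 2.12% for SK-MEL-28, and those called higher and lower in A375 in the line difference were 14.2% and 13.4%. Of the markers of other lineages, PECAM1 reached 6.46, COL1A1 7.57 and KRT14 8.49 on these arrays, and the leukocyte gene CD3E 5.90. The CD3E level was taken as a guide, so a difference against a level near or under it is read as having no exact size. This holds for the lower arrays of SERPINA5, SERPINI1, MMP2, MMP3, MMP9, KDR, ADAM22, TSPAN5, TSPAN33, RHBDF2, NOTCH1, AXL, TNFRSF1B, EGF, APH1B and BACE1. Of 13 measured genes of the plasminogen system, 2 were at least 2-fold higher in A375 cells (3.89% of all genes) and 0 in SK-MEL-28 cells (0.776%), with list medians of 0.11 and 0.00. These were VLDLR, a receptor that takes up serpin and protease complexes, at 2.48 in A375 cells and 0.09 in SK-MEL-28 cells, and the neuroserpin gene SERPINI1, an inhibitor of tissue activator, at 1.75 and 0.90. The uptake receptor LRP1 differed by 0.94 and 0.24, and the plasminogen receptor PLGRKT by -0.61 and -0.06. PLG, which encodes plasminogen, was under the level minimum. In the line difference, the receptor MRC2 was higher in A375 by 1.93 and ENO1 differed by -0.53, with limma adjusted p-values of 0.0136 and 0.0236. The serpin SERPINA5, at 7.29 and 7.60 in A375 (ZIC5 and control siRNA) and 5.16 and 5.16 in SK-MEL-28, was also called higher in A375 (limma adjusted p = 0.0068).

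Among 10 measured relatives and targets of the TIMPs, 3 were past 2-fold upward and 1 downward in A375 (3.89% and 5.05% of all genes), and 1 each way in SK-MEL-28 (0.776% and 2.12%), with medians of 0.33 and -0.08. The collagenase MMP1 differed by 5.38 in A375 cells and -0.47 in SK-MEL-28 cells, and the gelatinase MMP9 by -1.28 and -0.05. The membrane protease MMP16 differed by 1.17 and 1.10, and ADAMTS1 by -0.32 and -1.07. MMP3, named after its values were seen because it completes the count, was at 5.80 with ZIC5 siRNA and 4.36, under the minimum, with control siRNA in A375. The gelatinase MMP2 was at 10.95 and 10.53 in A375 (ZIC5 and control siRNA), and at 5.21 and 5.69 in SK-MEL-28 (line difference, limma adjusted p = 0.0038). Those SK-MEL-28 levels were under the CD3E levels of the same arrays, 5.75 and 5.90. MMP16 (2.08) was also called higher in A375 and ADAMTS1 (-1.30) lower. KDR had both SK-MEL-28 arrays under the minimum and passed it only through its A375 arrays, so its call as higher in A375 is not read and no size is given.

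Among 9 other ADAM genes, ADAM19 was 2.73-fold higher in A375 and 1.61-fold higher in SK-MEL-28 with ZIC5 siRNA, opposite in sign to ADAM10. ADAM15 differed by 0.28 and 0.29, ADAM33 by 0.51 and 0.00 and ADAM23, which lacks protease activity, by -0.17 and -0.33. The list medians were 0.07 in A375 cells and -0.03 in SK-MEL-28 cells, and 1 gene was at least 2-fold higher in A375 cells and 0 in SK-MEL-28 cells. ADAM23 was called lower in A375 than in SK-MEL-28 (-2.31, limma adjusted p = 0.0068), and ADAM22 differed by 0.64 without passing.

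Of 11 measured regulators of the sheddases, the iRhom-binding protein FRMD8, which stabilises the ADAM17 complex at the surface, was 1.89-fold higher in A375 and 2.58-fold higher in SK-MEL-28 (mean 1.14, limma adjusted p = 0.270). RHBDF2, an iRhom that carries ADAM17 to the surface, differed by -0.62 and -0.71. The iRhom gene RHBDF1, named after its values were seen, went the other way, by 0.46 and 0.21, with log2 intensities of 8.60 or above. Among the tetraspanins that carry ADAM10, TSPAN14 differed by 0.37 and 0.75 and TSPAN33 by -0.60 and -0.22. The list medians were 0.37 in A375 cells and -0.04 in SK-MEL-28 cells. Between the lines, 3 regulators were called higher in A375 (14.2% of all genes), FRMD8 (1.05), the convertase PCSK7 (0.98) and TSPAN5, which was at 4.71, under the minimum, with ZIC5 siRNA in SK-MEL-28, and 3 lower (13.4%), TSPAN10 (-2.67), TSPAN14 (-1.76) and RHBDF2 (-0.73).

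Of 27 measured sheddase substrates, 1 was past 2-fold upward and 3 downward in A375 (3.89% and 5.05% of all genes), and 1 downward in SK-MEL-28 (2.12%), with medians of -0.21 and -0.08. The TNF receptor gene TNFRSF1B was at 5.29 with ZIC5 siRNA and 7.12 with control siRNA in A375 cells, and at 4.86 and 5.16 in SK-MEL-28 cells. The adhesion molecule L1CAM differed by -1.79 and -0.33, the receptor tyrosine kinase AXL by -1.24 and -0.54 and the adhesion molecule MCAM by -0.88 and -0.55. The Notch ligand JAG1 (1.43 and -0.09) and the NKG2D ligand ULBP2 (0.39 and -1.28) were named after their values were seen, to complete these counts. Between the lines, 5 substrates were called higher (14.2% of all genes) and 8 lower (13.4%) in A375. AXL was at 10.98 and 12.22 in A375 (ZIC5 and control siRNA) and 5.28 and 5.82 in SK-MEL-28 (limma adjusted p = 0.0028). The growth factor TGFA was higher in A375 by 3.66 (limma adjusted p = 0.0031), and NOTCH1 (2.26), CDH2 (1.01) and CD44 (0.71) were called too. EGF, counted among the 8, had both A375 arrays under the minimum and passed it only through its SK-MEL-28 arrays. Its call as lower in A375 is therefore not read and no size is given. The others called lower in A375 were ICAM1 (-2.66), MCAM (-1.89), ALCAM (-1.65), MICA (-1.48), NOTCH2 (-1.34), PRNP (-0.98) and APP (-0.80).

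**Figure D5:**
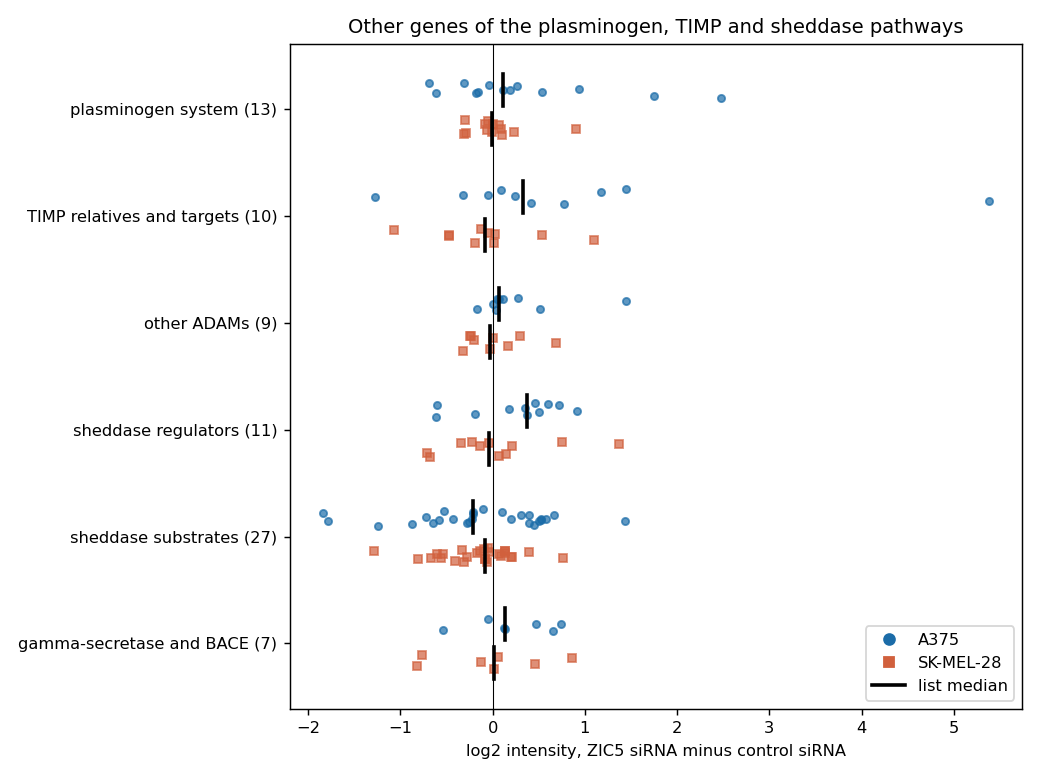
Log2 intensity with ZIC5 siRNA minus control siRNA (x axis) for the measured genes of 6 lists (rows, with the number of genes), with circles for A375, squares for SK-MEL-28 and a black bar at each list's median. List medians lie between -0.21 and 0.37, and MMP1 in A375, at 5.38, lies farthest from 0.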

How the data were processed

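The deposited values are linear intensities, a single one for each probe set on each array. The submitters' processing notes name RMA and Affymetrix Expression Console, and their versions are not given in the sources used here. Biotinylated cRNA came from 100 ng of total RNA per array, per the labels' protocols. No detection calls or read counts were used. RMA equalises the distributions of the arrays, so a shift shared by most transcripts would not show, and differences at low intensity are compressed.

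Log2 of the deposited intensity was taken here. Gene symbols came from the array platform's annotation, and those naming several genes (1801) or none (11721) were not used. Symbols were checked by gene ID against RefSeq (GRCh38.p14), where 41037 probe sets matched and 0 symbols changed. Each gene was read on its probe set with the highest mean, if that mean was 5 or more on the log2 scale (intensity 32). Within a line, with 1 array per group, only size rules were used: at least 2-fold, and at least 1.5-fold in both lines. An additive fit of siRNA and line (limma 3.58.1, R 4.3.3, with lmFit and a trended eBayes) gave SEs and Benjamini-Hochberg adjusted p-values over all genes, called under 0.05, with 1 residual and 2.85 prior degrees of freedom per gene. The SE therefore mixes how far the lines disagree with a spread shared across genes, and the p-values speak only of spread among these 4 arrays. The siRNA comparisons of the lines share no control array.

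The members and the lists were chosen with earlier results of these data known. Named are the members, list genes that passed a limma test, in each list up to 4 genes with the greatest mean siRNA difference and up to 2 with the greatest line difference, and the 3 genes nearest in pattern to each of 3 members. The 6 lists held 100 genes, of which 77 were measured at the minimum, and the others are not analysed here. Alternatives covered the level minimum, low values, normalization, probe set choice and variance moderation.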

Additional observations from a re-analysis of the deposited data

Results flagged for a closer look

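PLAUR and TIMP3 are listed because the siRNA difference on the main probe set had opposite signs in the lines, and this difference between the lines was not tested. Opposite signs were common: 17.0% of all genes were higher in A375 and lower in SK-MEL-28, and 18.6% were the reverse. PLAUR differed by 0.43 in A375 cells and -0.48 in SK-MEL-28 cells, with the same signs on its 3 probe sets. TIMP3 differed by -0.27 in A375 cells and 0.35 in SK-MEL-28 cells, but its other 3 probe sets were higher in A375 as well.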

How the results depend on the processing

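The limma fit of the siRNA effect pairs the arrays of a line through its line term. The labels give no replicate numbers for a further block, and leaving out any array leaves that fit no residual degree of freedom. Of the within-line differences of the members under the alternatives, 76 equal the reported value, since those alternatives leave a single probe set's values as they are, and say nothing of stability. Of the other 48, 45 moved by less than the median SD between probe sets. Of 160 tested member values, 159 kept their direction and side of the threshold. Alternatives that change only which features are tested or the variance moderation leave these estimates as they are, so direction was fixed there and says nothing of stability. The siRNA effect called 0 genes under every alternative run, and the ADAM10 adjusted p ran between 0.157 and 0.373. The line differences of PLAT, TIMP2 and TIMP3 passed under each alternative run, with limma adjusted p-values up to 0.0358, 0.0127 and 0.0441. SERPINE2 passed the line test at a minimum of 7 (0.70, limma adjusted p = 0.0297), and otherwise had up to 0.111. With probe sets averaged, the TIMP3 difference in A375 turned positive, to 0.08, and that in SK-MEL-28 was 0.68, and the PLAU difference in SK-MEL-28 was 0 with values under 5 set to 5. With a minimum of 7, which tests fewer genes, 803 genes were at least 2-fold different in A375, beside 1234. With every probe set taken as a feature, which tests 25368, the counts were 2448 in A375 (beside 1234), 696 in SK-MEL-28 (beside 399), 1429 at least 1.5-fold in both lines (beside 753) and 6424 for the line difference (beside 3816). Members near the minimum, PLAU and the second SERPINE2 probe set, are the least certain.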

Other observations

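Some substrates cut by ADAM10 are cleaved next by gamma-secretase, and BACE enzymes compete for some substrates. Of the 7 measured genes of this group 0 were at least 2-fold different in either line, with medians of 0.14 in A375 cells and 0.02 in SK-MEL-28 cells. The catalytic subunit gene PSEN2 differed by 0.66 in A375 cells and 0.86 in SK-MEL-28 cells with ZIC5 siRNA, the subunit genes PSENEN by 0.74 and 0.46 and APH1B by -0.54 and -0.76, and BACE1 by -0.05 and -0.82. APH1B was at 5.77 with ZIC5 siRNA in A375 and BACE1 at 5.95 with ZIC5 siRNA in SK-MEL-28, so their sizes are not exact. None of these genes passed the limma test of the siRNA effect. Between the lines BACE1 (2.33) and PSENEN (0.92) were called higher in A375, and BACE2 (-2.08), APH1B (-1.23) and PSEN2 (-1.21) lower (13.4% of all genes were, and 14.2% higher), each with a limma adjusted p between 0.0052 and 0.0362.

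The genes nearest to ADAM10 in both siRNA differences and the line difference were MEA1, TSPAN6 and TYW3, at Euclidean distances of 0.05, 0.07 and 0.10 (log2) over 3 differences from 4 arrays. Nearest to TIMP1 were MACF1, NPIPA1 and PYCR1, at 0.05, 0.06 and 0.09, and nearest to PLAU were TXNRD2, EDN1 and FSD1, each at 0.13, though PLAU itself was under the minimum on 3 arrays. With 13794 genes and 3 differences, near neighbours are found for most patterns, and the list describes these arrays only.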
